A study of Zea mays with 4 samples.

Results

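Expansins, xyloglucan-modifying enzymes, cellulose synthases, pectin enzymes, extensins and arabinogalactan proteins were followed in maize roots after local nitrate supply. The members were all maize probes present as a single spot on one array version whose annotation text names such a protein. This gave 368 probes of 55547, with 165 on array version A and 203 on version B, and they point to 178 different best protein hits. The groups of the rule are protein names given by similarity, often to rice or Arabidopsis proteins, and 80 of the 368 probes have a maize protein as best hit. Plants had been grown with 0.5 mM nitrate for 6 days and without nitrogen for 2 days before they were placed in a split-root system at day 10 of age. In this system 1 root compartment received 1.0 mM nitrate, and the nitrogen-free compartment received 1.0 mM CaCl2 to balance calcium. After 1 h, segments of 15 cm, running from the root tip up to where lateral roots elongate, were harvested from nitrate-supplied roots and from control roots. All plants had thus been starved of nitrogen, the control roots included, and no genotype or cultivar is given in the sources used here. Whether the control RNA came from the other compartment of the same plants is also not given.

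Nitrate RNA (Cy3) and control RNA (Cy5) were hybridised together on each of 4 arrays, with 2 replicate arrays per version. Versions A and B carry different probes. The dye orientation was the same on every array, so a dye effect of a probe is part of its ratio. The series text gives 2 biological replicates, and the column headers do not settle whether the control RNA of the replicates came from separate plants. The headers carry the same RNA names on both versions, so the 2 versions may hold the same RNA extracts and do not count as separate samples here. The p-values measure only the spread between these arrays, estimated largely over all probes, and this spread may in part be technical. The median intensity of maize probes was 1572.5 to 1939 in the nitrate channel and 1438 to 1960 in the control channel, and the number of arrays limits the precision. Nitrate reductase and nitrite reductase, the enzymes that reduce nitrate to ammonium, served as a check of direction. Their brightest probes had mean log2 ratios of 1.66 ± 0.04 and 0.76 ± 0.64 for version A, while those of version B were 2.58 ± 1.30 and 1.72 ± 0.10 (SD, n = 2), and each was above 0 on both arrays. None of these 4 probes passed the limma test, with adjusted p from 0.0509 to 0.393. The labelled tissue could not be checked by absent leaf or pollen markers. On version A 36 to 39 of 39 leaf probes and all 25 pollen probes exceeded the blank spots in each channel, as did all 29 root probes. Kernel probes exceeded them less often, 48 to 56 of 59 on version A and 137 to 231 of 264 on version B. Of all maize spots 95.4% to 98.9% did so on version A and 89.6% to 94.9% on version B. The part of other tissues in the results was not tested.

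The growing plant cell wall is a network of cellulose microfibrils embedded in hemicelluloses such as xyloglucan and in pectin. Expansins loosen this network without cutting its polymers, xyloglucan endotransglucosylase/hydrolases cut and rejoin xyloglucan, and cellulose synthases spin the microfibrils at the plasma membrane. Pectin methylesterases, acetylesterases, lyases and polygalacturonases modify or cut pectin, and extensins and arabinogalactan proteins are hydroxyproline-rich proteins of the wall and the cell surface. Grass walls hold less xyloglucan and pectin than those of most other flowering plants, and grasses have a large beta-expansin family.

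Of the 368 wall probes, 352 were bright enough to be tested (163 on version A, 189 on version B). The test was limited to probes that outshone the blank and buffer spots in at least 1 channel of each array. The 16 others included 5 extensins, and their intensities ran from -102 to 5302. The upper value belongs to a cellulose synthase-6 probe, MZ00043374, which read -102 and 0 in the nitrate and control channels of replicate 1 and 4737 and 5302 in replicate 2. In the nitrate channel 10 tested probes carried the filter alone on at least 1 array, and in the control channel 5 did. Log2 ratios of nitrate over control were computed after loess normalization, which corrects for brightness, so the ratio of the printed intensities differs from the normalized ratio.

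No wall probe passed the limma test at an adjusted p of 0.05 on either version. The smallest adjusted p among wall probes was 0.163 for version A and 0.153 for version B. Of all 28374 maize probes tested on version A 0% passed, and of the 24748 tested for version B 0.0525% did, which is 13 probes. At an unadjusted limma p of 0.05, 17 wall probes passed on version A (10.4%, against 12% of all probes) and 23 on version B (12.2%, against 12.9%). Of these 40 probes, 28 were higher with nitrate, 7.95% of the wall probes tested against 7.59% of all probes, and 12 were lower, 3.41% against 4.86%. These shares lie near those of all probes.

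A 2-fold or larger difference in the same direction on replicate 1 and replicate 2 was found for 2 wall probes of version A and for 0 of version B, against 0.719% and 0.647% of all probes on those versions. On version A an alpha-expansin was higher with nitrate (0.592% of all probes were so) and a beta-expansin was lower (0.127% of all probes). On version A the median log2 ratio of the wall probes was -0.06, with 37 probes higher on both arrays, 52 lower on both and 74 of opposite sign. On version B the median was 0.11, with 71 higher on both arrays, 42 lower on both and 76 opposite. The medians of all probes were 0.00 on each version. Over both versions 30.7% of wall probes were higher on both arrays, 26.7% lower on both and 42.6% opposite, against 30.1%, 30.4% and 39.6% of all maize probes. A mean log2 ratio under 0.5 in size was found for 292 of 352 wall probes, 83.0% against 81.8% of all probes. The limma 95% interval of a single wall probe's mean reached to either side by a median of 0.56 (version A) or 0.55 (version B), so most of these ratios are not separable from 0 at this number of arrays.

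**Figure D1:**
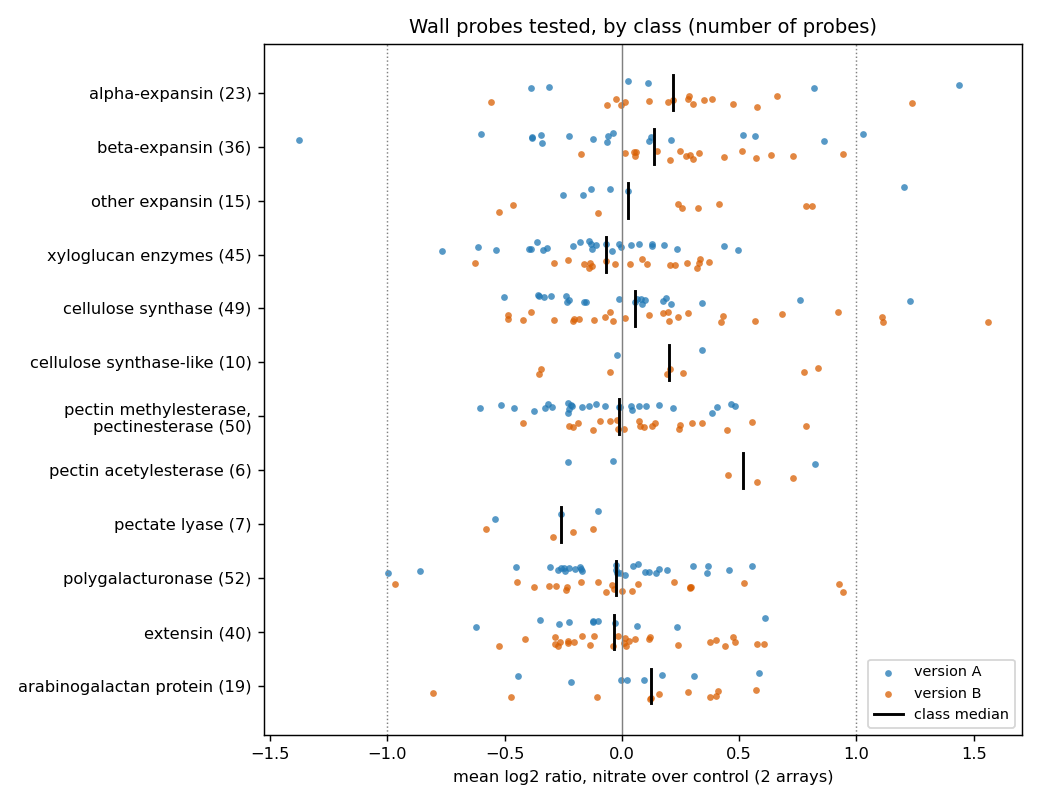
Mean log2 ratio of nitrate over control (x axis, mean of 2 arrays) for the 352 wall probes tested, by protein class (y axis, number of probes in brackets). Points are probes, coloured by array version, black bars are class medians, and dotted lines mark 2-fold. Class medians lie between -0.26 (pectate lyases) and 0.52 (pectin acetylesterases), and most points lie within 0.5 of 0.

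Replicate arrays ranked the wall probes only loosely. Across the wall probes the log2 ratios of replicates 1 and 2 correlated at r = 0.18 for version A and r = 0.12 for version B, and across all probes at 0.29 and 0.27. These are descriptions across probes that share arrays, and probes are not independent replicates. On a single array, 2-fold differences were more frequent than on both. On version A 6 wall probes were at least 2-fold higher and 5 lower in replicate 1, and 3 higher and 5 lower in replicate 2. On version B the counts were 12 higher and 1 lower in replicate 1, and 11 higher and 1 lower in replicate 2. In all 40 probes reached 2-fold on 1 array only, and 16 of them had the opposite sign on the other. Single-array shares of all maize probes were not computed, so these counts are descriptions only. Maize probes of version B as a whole leaned upward too, 146 being at least 2-fold up in each replicate and 14 down. For version A these numbers were 168 and 36.

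**Figure D2:**
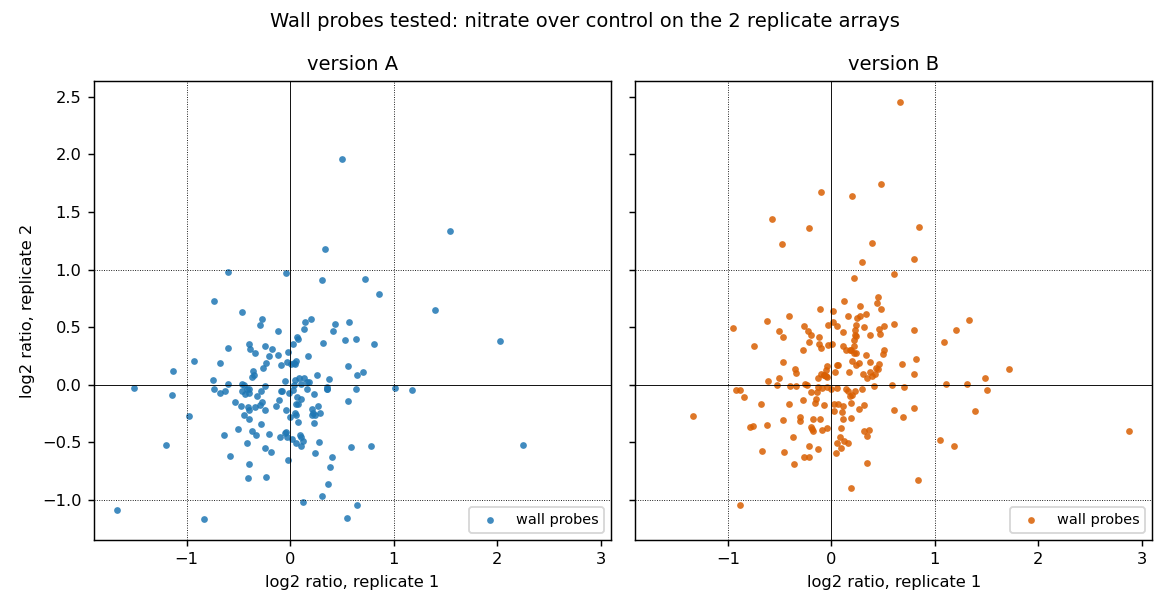
Log2 ratio of nitrate over control in replicate 1 (x axis) and replicate 2 (y axis) for the tested wall probes of version A (left, 163 probes) and version B (right, 189 probes). Each point is a probe and dotted lines mark 2-fold. On version A 2 points lie beyond 2-fold in the same direction on both axes, on version B none does, and 40 probes pass 2-fold on 1 axis only.

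Expansins held both wall probes that differed by 2-fold in both replicates. Of 77 expansin probes 74 were tested, and 14 of them had an unadjusted p under 0.05 (18.9%, against 12.5% of all probes of both versions), with 11 higher and 3 lower. Their median log2 ratio was 0.17. By version it was -0.05 over 30 probes of version A and 0.28 over 44 probes of version B. The means were above 0 for 13 of the 30 and for 36 of the 44 (13 to 15 and 31 to 36 under the other scalings), while 50.4% and 49.6% of all probes were above 0 on those versions. The versions carry different expansin probes and were hybridised on different arrays, so probe choice and array version cannot be told apart here.

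Alpha-expansins, the acid-growth expansins named first in dicots, had 24 probes and 23 tested. The alpha-expansin probe MZ00016971, designed on the maize sequence TC223186, had intensities of 11178 with nitrate and 4556 in the control in replicate 1, and 19034 and 8645 in replicate 2. Nitrate was brighter than control on both arrays, with log2 ratios of 1.55 and 1.33 and a mean of 1.44 ± 0.15 (SD, n = 2; limma 95% interval 0.90 to 1.98, adjusted p = 0.163). A second probe of the same sequence on the same arrays, MZ00016972, had 18616 and 14736 in replicate 1 and 25170 and 16060 in replicate 2. Its log2 ratios were 0.72 and 0.92, so both probes of this alpha-expansin were higher with nitrate on both arrays. The lowest alpha-expansin was MZ00016294, a probe for EXPA7, with 5312 against 11759 and 8171 against 9869. Log2 ratios of -0.75 and -0.36 gave a mean of -0.56 ± 0.28 (SD, n = 2; limma adjusted p = 0.381). The other 2 probes with EXPA7 as best hit, both of 1 other maize sequence, had means of -0.03 and 0.01.

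In the alpha-expansin class 13 of 23 probes were higher on both arrays, 4 were lower on both and 6 were opposite. The class median was 0.22 (0.14 with median centring, in which each array is centred on its median in place of loess), and it was 0.22 and 0.17 on the version B arrays against -0.08 and 0.22 on version A, where only 6 probes were tested. Another alpha-expansin protein hit was shared by 4 version B probes, whose means of 0.20, 0.28, 0.35 and 1.24 were all above 0 (3 of 4 with median centring). The brightest of the class, MZ00054799, was in this set. Its intensities were 24332 with nitrate against 28190 and 23236 against 16992, and its log2 ratios were 0.23 and 0.47. The mean of 1.24 came from MZ00046773, which read 2.88 in replicate 1 and -0.40 in replicate 2, so replicate 1 alone carried it.

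Beta-expansins, the grass-rich branch of the family, had 36 probes, all tested. The beta-expansin probe MZ00022872 had 310 with nitrate against 1181 in the control in replicate 1 and 1145 against 2250 in replicate 2. Both log2 ratios were below -1, at -1.67 and -1.08, with a mean of -1.38 ± 0.41 (SD, n = 2; limma 95% interval -1.97 to -0.78, adjusted p = 0.212). It was the only tested wall probe lower by 2-fold in replicate 1 and in replicate 2 alike, and no wall probe of version A was so under print-tip loess or in the deposited ratios. The highest beta-expansin was MZ00027193, for beta-expansin 4, with 13531 against 6281 and 15013 against 10962. Log2 ratios of 1.40 and 0.65 gave a mean of 1.03 ± 0.53 (SD, n = 2; limma adjusted p = 0.304). The brightest probe, MZ00043636 for beta-expansin 7, was saturated in the control channel of replicate 1 and had log2 ratios of -0.34 and -0.01.

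The beta-expansin median was 0.14 (0.03 with median centring), and ratios went both ways within the class, with 11 higher on both arrays, 8 lower on both and 17 opposite. On version B 17 of 18 beta-expansin means were above 0 (12 with print-tip loess or median centring, 13 in the deposited ratios), with array medians of 0.36 and 0.24, and on version A 7 of 18 were, with medians of -0.14 and -0.05. The 3 probes for beta-expansin 9, all on version B, had means from 0.05 to 0.94, of which 2 stayed above 0 with median centring. The 6 probes for beta-expansin 7 were split, 3 above and 3 below 0, from -0.34 to 0.73. Among beta-expansins as well 1 replicate could carry a value: MZ00029301 on version A read 2.25 in replicate 1 and -0.52 in replicate 2.

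The 17 probes annotated only as expansin or expansin-like, of which 15 were tested, had a median of 0.03, which was 0.18 with median centring. Their highest was MZ00032937, a putative expansin with 5796 against 1487 and 10111 against 8557. Its log2 ratios of 2.03 and 0.38 were both above 0 and far apart, with a mean of 1.20 ± 1.17 (SD, n = 2; limma adjusted p = 0.351). The lowest, MZ00051435, had 742 against 973 and 812 against 917, with log2 ratios of -0.46 and -0.59. The brightest, MZ00023102, had ratios of 0.24 and -0.33, on opposite sides of 0.

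**Figure D3:**
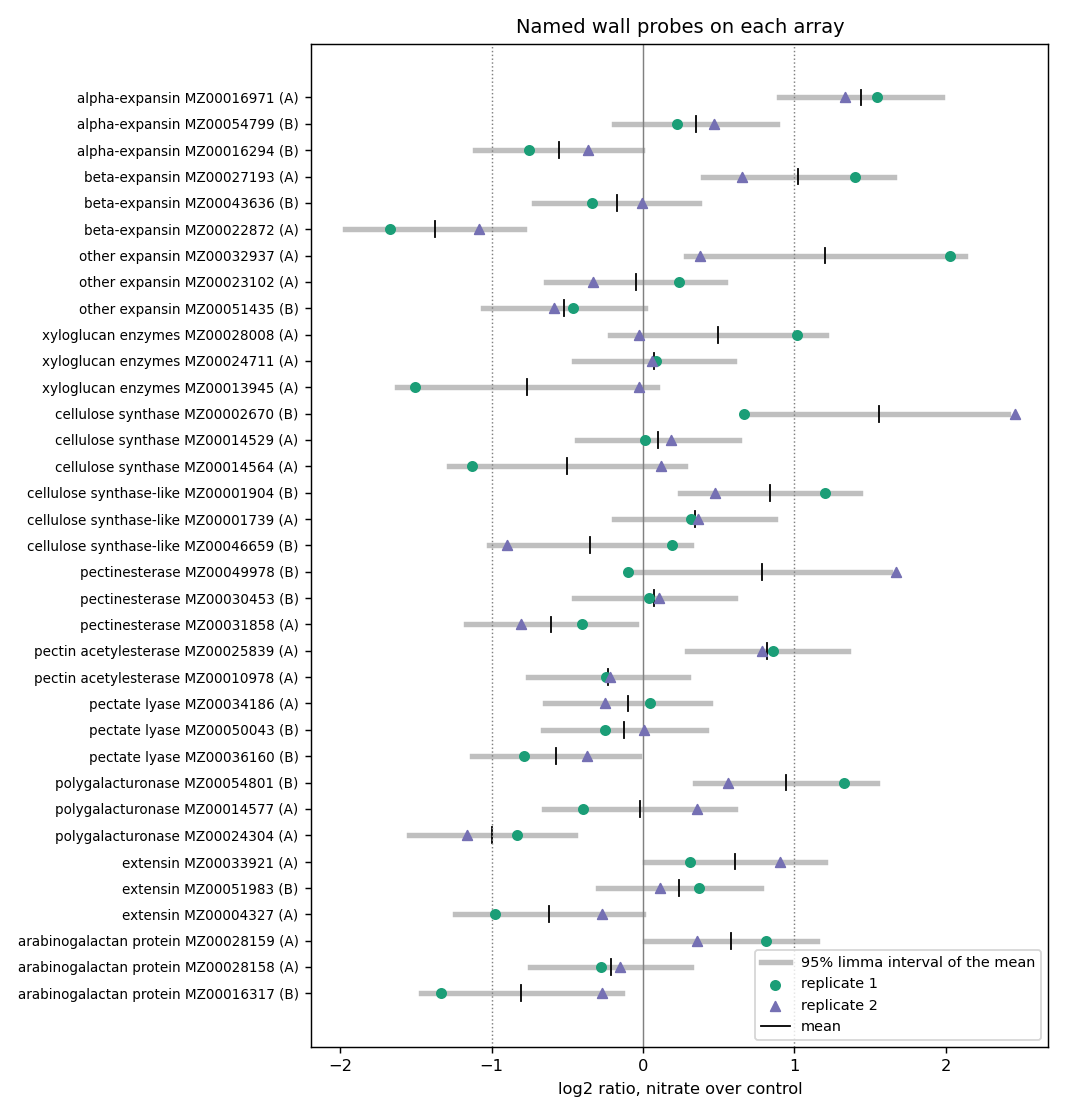
Log2 ratio of nitrate over control (x axis) of the 35 named wall probes (y axis, with class, probe and version in brackets), in replicate 1 (circles) and replicate 2 (triangles). Black ticks are the means and grey bars the 95% limma intervals of the mean. The alpha-expansin MZ00016971 and the beta-expansin MZ00022872 are the probes with both arrays beyond the dotted 2-fold lines on the same side, and the cellulose synthase MZ00002670 reaches 2.46 in replicate 2 against 0.66 in replicate 1.

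Xyloglucan enzymes had few differences between nitrate and control. Of 47 probes 45 were tested, and 2 had an unadjusted p under 0.05 (4.4%, against 12.5% of all probes), both lower with nitrate. The class median was -0.07 (-0.05 with print-tip loess), with 9 probes higher on both arrays, 15 lower on both and 21 opposite. The 28 tested endotransglucosylase/hydrolase probes had a median of -0.12 and the 16 tested xyloglucan fucosyltransferases, which add fucose to the side chains of xyloglucan, one of 0.01. The remaining tested probe of the class is a xyloglucanase inhibitor. The lowest probe, MZ00013945, resembles XTH9 of Arabidopsis and had 2899 against 9948 in replicate 1 and 1990 against 1834 in replicate 2. Its log2 ratios were -1.51 and -0.03, so the mean of -0.77 ± 1.04 (SD, n = 2; limma adjusted p = 0.445) rested on replicate 1. The highest, the fucosyltransferase MZ00028008, had 3840 against 2033 and 4125 against 4186, with ratios of 1.02 and -0.03. The brightest, MZ00024711, had 21105 against 26290 and 34651 against 41935 and normalized ratios of 0.09 and 0.06. The annotation xyloglucan endo-1,4-beta-D-glucanase of barley covers 2 protein hits with 3 version A probes each, and another hit with 2 version A probes. For 1 hit all 3 probes were lower on both arrays, with means from -0.61 to -0.32, and their means were below 0 under every scaling tried. For the other hit of 3 probes 1 probe was lower on both arrays, and the means ran from -0.21 to 0.18. The hit of 2 probes had means of -0.133 and -0.127, with 1 probe lower on both arrays.

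Cellulose synthases had 50 probes, 49 of them tested, and a median of 0.05, which became -0.08 when arrays were centred on their medians without loess. Of the 49, 8 had an unadjusted p under 0.05 (16.3%, against 12.5% of all probes), and all 8 were higher with nitrate. Over all maize probes 4033 of the 6616 with such a p were higher. In 7 of the 8 cellulose synthase probes the ratio was larger in replicate 2 than in replicate 1. The share of all probes with this order was not computed, so the 7 of 8 is a description only. The putative cellulose synthase probe MZ00002670, on the maize sequence AZM4_59054, had 1737 against 1062 in replicate 1 and 11148 against 1650 in replicate 2. Its log2 ratios were 0.66 and 2.46, with a mean of 1.56 ± 1.27 (SD, n = 2; limma 95% interval 0.71 to 2.41, adjusted p = 0.173), the highest mean of any wall probe. Without replicate 2 it was 0.66. The second probe of this sequence, MZ00050415, had 4406 against 2855 and 11170 against 3824, with log2 ratios of 0.84 and 1.37. The control intensities of both probes changed less between the replicates than the nitrate intensities did.

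The same rice protein was the best hit of 5 tested probes, with a median of 1.11. A version A probe of this set, MZ00034927, had log2 ratios of 0.50 and 1.96, so its larger value was also in replicate 2. The remaining members had means of 0.43 (ratios -0.58 and 1.44) and -0.30 (ratios -0.41 and -0.19), so the set did not move as a block. Among the numbered maize cellulose synthases, all 4 probes for cellulose synthase-5 had means above 0, from 0.07 to 0.68 (3 of 4 with median centring). For cellulose synthase-6, 4 of 5 tested probes had means below 0, with a median of -0.35. The lowest of them, MZ00014564, had 6599 against 18368 and 10798 against 11189, with ratios of -1.13 and 0.12, and replicate 1 alone made it the lowest of the class. The brightest cellulose synthase, MZ00014529 for cellulose synthase-2, was saturated in the control channel of replicate 1 and had ratios of 0.01 and 0.18.

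Cellulose synthase-like proteins, which make other wall glucans and hemicelluloses, had 10 probes, all tested, with a median of 0.20 (0.11 with median centring). The highest was MZ00001904, similar to CslF1 of rice, a family whose members make mixed-linkage glucan in grasses. It had 1167 against 330 in replicate 1 and 221 against 44 in replicate 2, where the control did not exceed the blank spots. Its log2 ratios were 1.20 and 0.47, with a mean of 0.84 ± 0.52 (SD, n = 2; limma adjusted p = 0.256). The lowest and the brightest probe of the class both match CslE1 of rice and carry 1 maize sequence name, AZM4_1068. MZ00046659 on version B had 4263 against 4538 and 2191 against 3449, with log2 ratios of 0.19 and -0.90. MZ00001739 on version A had 19948 against 21190 and 15377 against 13950, with ratios of 0.31 and 0.37. These probes of the same sequence name thus differed in sign of the mean.

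Pectin methylesterases and pectinesterases, which remove methyl groups from pectin, had ratios close to 0. Of 51 probes, 1 of them for a pectin methylesterase inhibitor, 50 were tested. The median was -0.01 (0.06 in the deposited ratios and 0.01 with print-tip loess), and 1 had an unadjusted p under 0.05 (2.0%, against 12.5% of all probes). That probe, MZ00031858, was the lowest of the class, with 183 against 218 and 220 against 325 and log2 ratios of -0.40 and -0.81. The highest, MZ00049978, had 314 against 218 and 608 against 26, with ratios of -0.10 and 1.67, and its control did not exceed the blank spots in replicate 2. The brightest, MZ00030453, was saturated in 3 of 4 readings and had ratios of 0.04 and 0.11. A putative pectinesterase that was the best hit of 5 probes gave means from -0.23 to -0.17, all below 0 and all small, and with median centring 3 of the 5 were above 0.

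Pectin acetylesterases, which remove acetyl groups, had the highest class median, 0.52 over 6 tested probes, which was 0.29 with median centring. The probe MZ00025839 had 10672 against 7212 and 19929 against 13737. Its log2 ratios of 0.86 and 0.78 lay close together, with a mean of 0.82 ± 0.05 (SD, n = 2; limma adjusted p = 0.312). The 3 probes on version B had a median of 1.39 in replicate 1 and -0.05 in replicate 2, so the class median was high on 1 array only. The lowest, MZ00010978, had 1403 against 1754 and 1478 against 1528, with ratios of -0.24 and -0.22. Pectate lyases, which cleave de-esterified pectin by elimination, had the lowest class median, -0.26 (-0.13 with median centring). All 7 tested means were below 0, of which 5 stayed so with median centring, while 50.4% (version A) and 49.6% (version B) of all probes were above 0. On the 2 arrays 4 of the 7 were lower on both and 3 opposite. Of the 7 pectate lyase probes, 1 had an unadjusted p under 0.05 (14.3%, against 12.5% of all probes). The medians on the 4 arrays ran from -0.53 to -0.14. The lowest, MZ00036160, had 110 against 186 and 357 against 295, with log2 ratios of -0.79 and -0.37 and a limma adjusted p of 0.371, and the nitrate channel did not exceed the blank spots in replicate 1. The highest, MZ00034186, had 734 against 673 and 493 against 467 (ratios 0.05 and -0.25), and the brightest, MZ00050043, had 1626 against 2137 and 1882 against 1439 (ratios -0.25 and 0.00).

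Polygalacturonases, which hydrolyse the pectin backbone, were grouped with their inhibitor proteins and beta subunits and had 53 probes, 52 tested, with a median of -0.02 (-0.04 with median centring). The exopolygalacturonase probe MZ00024304, on the maize sequence TC235090, had 1872 with nitrate against 3759 in replicate 1 and 1738 against 3754 in replicate 2. Nitrate was dimmer than control on both arrays, with log2 ratios of -0.83 and -1.17 and a mean of -0.998 ± 0.238 (SD, n = 2; limma 95% interval -1.55 to -0.45, adjusted p = 0.280). A probe of the same sequence name on version B, MZ00035714, had 518 against 921 and 377 against 610. Its ratios were -0.88 and -1.05, so both probes gave values below -0.8 in both replicates, on arrays that may hold the same RNA extracts. Exopolygalacturonases of maize are best known from pollen. Of 57 tested pollen marker probes, 10 were higher on both arrays (17.5%, against 30.1% of all maize probes). Lower on both were 19 (33.3%, against 30.4%), and 28 were opposite (49.1%, against 39.6%). An unadjusted limma p under 0.05 was found for 9 pollen probes (15.8%, against 12.5% of all probes), 5 higher and 4 lower. Their normalized array medians ran from -0.171 to 0.077. Summed pollen intensities, not normalized, gave nitrate over control of 0.574 and 0.976 in replicates 1 and 2 of version A. On version B the summed ratios were 0.913 and 0.959. The part of pollen RNA in the exopolygalacturonase ratios was not tested. The other 5 tested probes with this protein as best hit had means from -0.45 to 0.52, on both sides of 0.

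The highest of the polygalacturonase class was an inhibitor, a protein that binds microbial polygalacturonases. MZ00054801 had 8139 against 3978 and 12553 against 8033, with log2 ratios of 1.33 and 0.56 and a mean of 0.94 ± 0.54 (SD, n = 2; limma adjusted p = 0.212). A second probe of its sequence, MZ00047808, had smaller ratios of 0.38 and 0.20. Nitrate was thus brighter at both probes on both arrays. The brightest polygalacturonase, MZ00014577, had 13955 against 24256 and 23945 against 22852, with ratios of -0.40 and 0.35, and its mean of -0.02 became 0.01 in the deposited ratios.

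Extensins, which crosslink into the wall, had 45 probes and 40 tested, with a median of -0.03 (from -0.06 with plain subtraction to -0.006 with median centring). The highest, MZ00033921, had 494 against 326 and 1141 against 454, with log2 ratios of 0.31 and 0.91 (mean 0.61 ± 0.42, SD, n = 2). The lowest, MZ00004327, had 334 against 704 and 1045 against 1089, with ratios of -0.97 and -0.27 (mean -0.62 ± 0.50, SD, n = 2). Their limma adjusted p were 0.410 and 0.413. The brightest, MZ00051983, was saturated in both channels on both arrays, so no direction is read from its ratio. Arabinogalactan proteins had 20 probes and 19 tested, with a median of 0.12 (0.04 with median centring). The array medians of version B were -0.22 and 0.46, on opposite sides of 0. The lowest, MZ00016317, had 4644 against 15627 in replicate 1 and 4503 against 4731 in replicate 2, with ratios of -1.34 and -0.27 (mean -0.80 ± 0.76, SD, n = 2; limma adjusted p = 0.313). The highest, MZ00028159, similar to fasciclin-like arabinogalactan protein 7 of Arabidopsis, had 14049 against 10118 and 5116 against 3988, with ratios of 0.81 and 0.36 (limma adjusted p = 0.409). The brightest, MZ00028158, had ratios of -0.28 and -0.15, and another probe of its sequence name, MZ00040468 on version B, had 0.16 and 0.60.

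**Figure D4:**
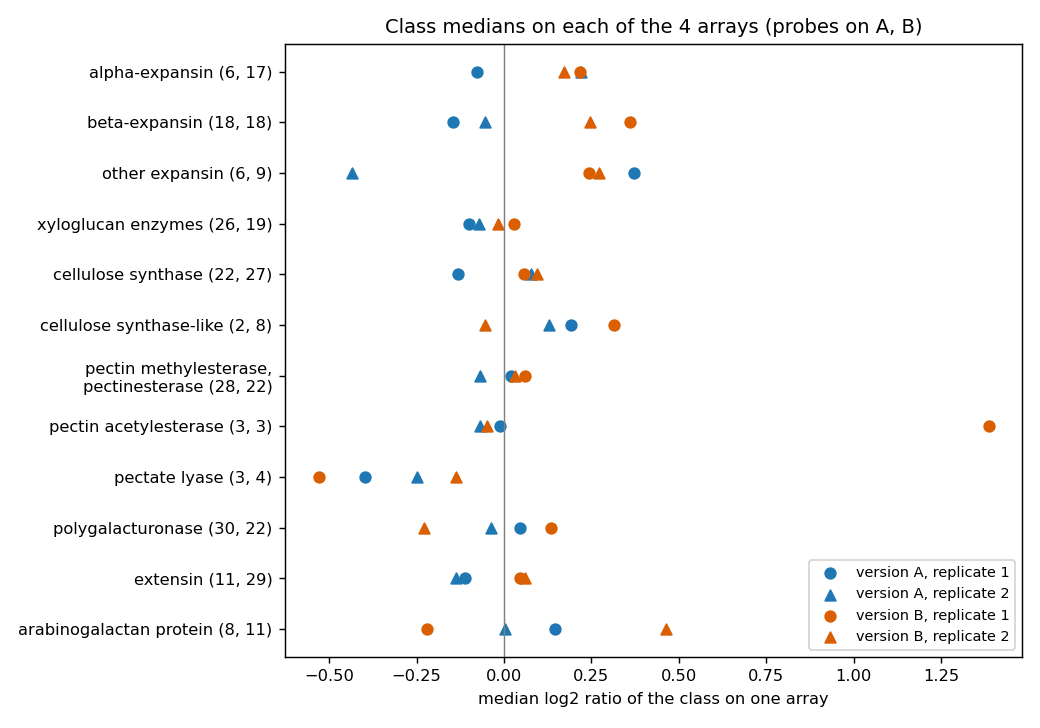
Median log2 ratio of nitrate over control (x axis) of each wall class (y axis, tested probes on versions A and B in brackets) on each of the 4 arrays. Circles are replicate 1, triangles replicate 2, and colours the versions. Pectate lyases are below 0 on all 4 arrays, and the pectin acetylesterases of version B, replicate 1, stand apart at 1.39. Expansin classes are above 0 on both version B arrays. So are cellulose synthases, pectin methylesterases and pectinesterases, and extensins, at 0.03 to 0.09.

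Of 48 protein hits with 3 or more tested probes, 5 had all their means above 0 and 4 had all below 0, so the sets of a single sign described above are a minority. The share of such sets over all maize probes was not computed, so the 5 and the 4 are descriptions only. Probes that share a maize sequence name gave a measure of how well a ratio is repeated by another probe. The 368 probes held 17 such names, and both probes were tested for 15 of them. The means had the same sign in 9 of the 15 pairs. On the same replicate number the probes of a pair differed by a median of 0.37 on the log2 scale, and the replicates of a single probe in these pairs differed by a median of 0.38. The pairs for the alpha-expansin TC223186, the cellulose synthase AZM4_59054 and the exopolygalacturonase TC235090 had the same sign in every one of their readings. So did those for the polygalacturonase inhibitor AZM4_13432 and the cellulose synthases AZM4_35131 and AZM4_90418. Cross-reaction can also blur gene identity. For 123 of the 368 wall probes (33.4%, against 29.6% of all maize probes) the deposited annotation lists another maize sequence that by its header matches the probe in full, which can be another copy or the same gene under another name. A second annotation field, by its header for matches at 95%, lists a maize sequence for 59 wall probes. Neither field lists a match for 202 of the 368. For the 123, and possibly for the 59, a value may belong to more than 1 gene.

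**Figure D5:**
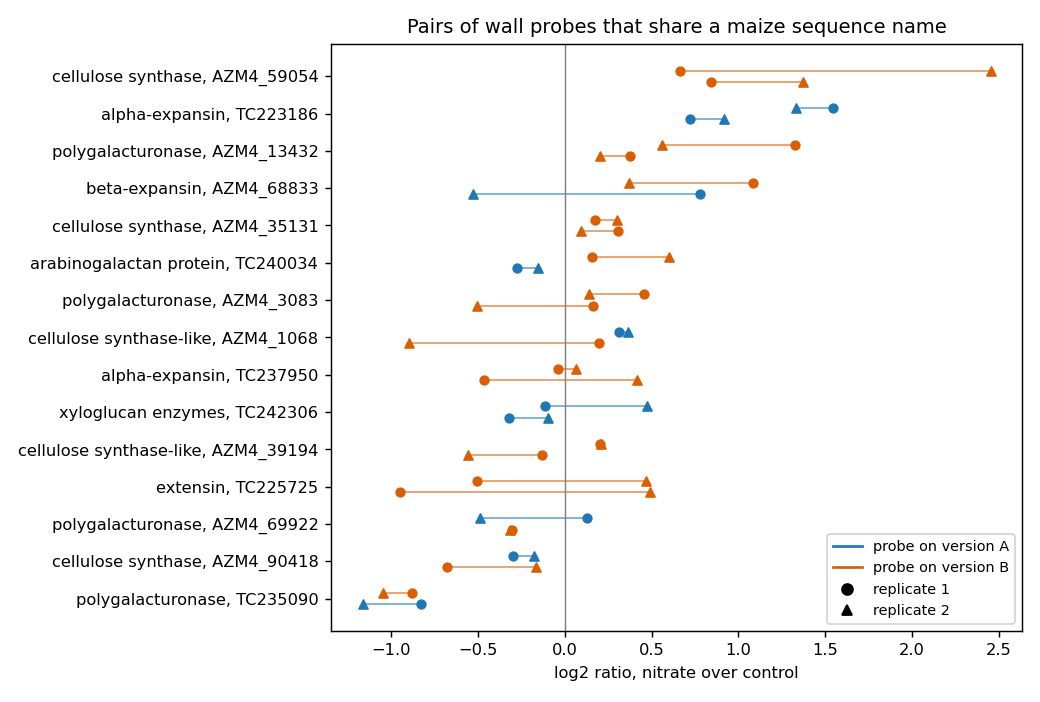
Log2 ratio of nitrate over control (x axis) for 15 pairs of wall probes that share a maize sequence name (y axis, with class). Circles are replicate 1, triangles replicate 2, lines join the replicates of a probe, and colours are the array versions. The pairs at the top and bottom (AZM4_59054, TC223186 and TC235090) lie on 1 side of 0 in all 4 readings, as do AZM4_13432, AZM4_35131 and AZM4_90418. In 6 of 15 pairs the means have opposite sign.

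Other genes of wall building and remodelling, such as callose synthases, glucanases, xylanases, enzymes of sugar nucleotide supply and proline-rich proteins, were counted beside them by annotation text. Of 335 matching probes 319 were tested, 0 passed the limma test (smallest adjusted p 0.147), and 42 had an unadjusted p under 0.05 (13.2%, against 12.5% of all probes). The text also matched 13 tested probes of other proteins, such as a germinal histone and a pollen germination related protein, and without these 41 of 306 had an unadjusted p under 0.05 (13.4%). The median log2 ratio of the 319 was 0.04, and 0 of them differed by 2-fold in the same direction on replicate 1 and replicate 2.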

How the data were processed

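The deposited intensities are whole numbers for each dye, not logged, and some are negative, so the authors had subtracted a background in a way that the sources used here do not describe. The second deposited column, a ratio of nitrate over control per the file headers, had a median of 0.996 to 1.01 per array, so the authors had normalized it, and it served as an alternative. Log2 ratios were computed from the intensities with limma 3.58.1 in R 4.3.3 (normexp, offset 50, global loess with span 0.3 within arrays, control spots at weight 0). Spots with flag B (4 to 10 per array, of unstated meaning) were left out. The background limit of a channel was the 95th percentile of its buffer and blank spots, and probes entered the test if each array had at least 1 channel above it. A spot within 1% of its channel's highest value was called saturated (threshold 99%). Means were tested against 0 with lmFit and eBayes, two-sided, per version, with Benjamini-Hochberg adjustment over all maize probes tested and 0.05 as the threshold. A fit of 2 arrays has 1 residual degree of freedom, and a prior over all probes supplies the remaining information on spread. The fit was tested on data simulated from a fitted prior, with planted changes larger than the mean of any wall probe. That simulation does not bear on ratios of the size seen here.

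Named probes are those past the test, those 2-fold or more apart in the same direction in both replicates, and in each class the highest and lowest unsaturated mean and the brightest probe. Probes sharing a best hit or sequence name are set beside them, and the probes named for differing replicates (MZ00046773 and MZ00029301) or for a dim spot (MZ00043374) were chosen after their values were seen. The members and gene lists were chosen with earlier results of these data known. No member was matched to the RefSeq gene table, and probe positions and sequences are not used here. There were 6 further probes of version B with matching text left out because they have several spots or are on both versions.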

Additional observations from a re-analysis of the deposited data

How the results depend on the processing

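No wall probe passed the limma test under any alternative run (median centring, print-tip loess, plain subtraction, deposited ratios, no filter on dim probes, maximum-likelihood or trended robust prior). The smallest adjusted p of a wall probe was 0.072, on version B with median centring. Unadjusted passes ranged from 6 to 20 on version A and from 6 to 32 on version B, with both lows under the trended robust prior. Over all maize probes, passes on version A were 8 with print-tip loess, and on version B 3 with print-tip loess and 0 with plain subtraction, deposited ratios, the maximum-likelihood prior or the trended robust prior. Wall probes at least 2-fold higher on both arrays numbered 2 on version A with deposited ratios, and on version B 1 with median centring, 1 with plain subtraction and 3 with deposited ratios. Those lower numbered 0 on version A with print-tip loess, 2 with plain subtraction and 0 with deposited ratios, and 1 on version B with plain subtraction. The version B median was 0.053 with median centring and 0.084 without the filter. Without replicate 1 or 2, which leaves 1 array and no test, the counts higher by 2-fold were 3 to 6 (A) and 11 to 12 (B), those lower 5 and 5 (A) and 1 and 1 (B), and the medians -0.050 to -0.011 (A) and 0.084 to 0.108 (B). The runs without the filter or with another prior reuse the main ratios, so no sign can change there. Of the 35 named probes 8 changed sign under 1 of the 4 other scalings: with median centring MZ00001739 (-0.020), MZ00014529 (-0.34), MZ00024711 (-0.34), MZ00030453 (-0.33), MZ00034186 (0.051), MZ00051983 (-0.16) and MZ00054799 (-0.035), and with deposited ratios MZ00014577 (0.0069). The cause was not tested. Of the 352 wall probes tested, 85 changed sign under median centring, and 236 kept their sign in all 4 other scalings. The shares of all maize probes that did so were not computed.

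No paired analysis was possible because no fit compares versions A and B, which share replicate numbers but carry different wall probes, and the nitrate and control RNA of a replicate share an array, so each ratio is already a pair.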
